A study of Mus musculus with 2 samples.

Results

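The nuclear genes for the subunits of the mitochondrial respiratory chain were followed across the cell classes of the newborn mouse heart on postnatal days 1 (P1) and 7 (P7). Members were every gene whose symbol starts with Ndufa, Ndufb, Ndufc, Ndufs or Ndufv and a number, with Uqcr, with Cox4 to Cox8 or with Atp5, together with Sdha, Sdhb, Sdhc and Sdhd. Of the 31053 genes listed, 84 matched and 82 had at least 20 summed unique molecular identifiers (UMIs, the tags that let each captured RNA molecule be counted once). By symbol, 35 of the 82 were assigned to complex I, 4 to complex II, 8 to complex III, 19 to complex IV and 16 to complex V. Cox7a2l, a factor of supercomplex assembly, was counted with complex IV. Cox8c, with no UMI, and a second gene identifier carrying the symbol Atp5o, with 1 UMI, were the matches left out. All 82 have a position in GENCODE M21 (GRCm38), on 19 chromosomes and never on the mitochondrial genome, and 3 (Ndufb11, Ndufa1 and Cox7b) lie on the X.

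The respiratory chain moves electrons from NADH and succinate to oxygen and uses the proton gradient this builds to make ATP. Complex I is NADH dehydrogenase, complex II is succinate dehydrogenase, complex III is the cytochrome bc1 complex, complex IV is cytochrome c oxidase and complex V is ATP synthase. Most subunits are encoded in the nucleus and imported, and a small set is encoded by mitochondrial DNA. Cardiac muscle is among the tissues richest in mitochondria, and the mammalian heart turns from glycolysis towards oxidative metabolism around birth. Several complex IV subunits exist as paired isoforms, of which some are typical of heart and skeletal muscle (Cox6a2, Cox7a1, Cox8b) and others are known as hypoxia-responsive (Cox4i2, Ndufa4l2).

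Each age was a single library, made from 3 hearts of a litter that were pooled, digested with collagenase II (20 min at P1, 45 min at P7) and sorted for live cells. No mutation or treatment is given for either group, and strain was not given in the sources used here. The P1 library held 57336 Xist UMIs and no Ddx3y UMI, and the P7 library held 12 and 7623, so the sex of the pools went with age. Because age, litter, sex, digestion time and library cannot be told apart, no test was possible, and every interval below is a 95% interval for counting error alone; PCR and capture add error it does not cover. A difference between ages is described as higher at P1 or at P7 with its size.

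After the filters, 4991 of 7836 barcodes remained at P1 (59026295 UMIs, median 10875 per cell) and 8511 of 9077 at P7 (97432007 UMIs, median 10104). The libraries shared 18 barcodes, 13 of them among the kept cells. Cells were classed by at least 2 UMIs of Cdh5 (endothelial), Pdgfra (fibroblast), Myh11 (smooth muscle), Kcnj8 (pericyte), Csf1r (macrophage), Cd3e (T cell) or Upk3b (epicardial) and of no other of these genes. Cells rich in Tnnt2, the cardiac troponin T gene, and under 2 UMIs of each of these genes were called myocytes. From P1 to P7 the numbers were 1622 and 3188 endothelial cells, 959 and 1936 fibroblasts, 132 and 369 smooth muscle cells, 187 and 336 pericytes, 198 and 195 macrophages, 2 and 191 T cells, 42 and 19 epicardial cells, and 88 and 17 myocytes. T cells are therefore given as levels only. In both libraries every class had UMIs of each other marker on its own list, and the summed CPM of each list was highest in its own class. The nearest were fibroblast markers, at 19756 CPM in P1 fibroblasts and 13234 CPM in P1 epicardial cells. Cells with several of these genes (208 and 412) or with none (1553 and 1848) entered only the values for all cells.

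Across all cells the 82 genes took 2.32% of UMIs at P1 and 2.37% at P7, and the log2 ratio of their summed counts after scaling to 1000000 UMIs per library or class (CPM), P7 over P1, was 0.03 (0.026 to 0.033). Cox4i1, the common form of complex IV subunit 4, was the most abundant at 1248 and 1197 CPM. Behind it at P1 came Atp5g2, a gene for the c-ring of ATP synthase (711 and 626 CPM). Cox8a, the common form of complex IV subunit 8, followed (678 and 762 CPM). At P7 Cox8a came next after Cox4i1, and Atp5j, Atp5b and Cox6c were also above Atp5g2. At the other end were Cox7a1 (6.25 and 5.24 CPM), Cox8b (6.79 and 5.40 CPM) and Cox7b2, with 11 and 10 UMIs in all. Levels are per captured molecule and do not depend on gene length.

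Past 1.5-fold in all cells, no member was higher at P7, where 8.23% of the 16552 genes with 20 UMIs were, and 2 were higher at P1, against 15.1% of those genes. These were Cox6a2 (18.2 and 8.34 CPM, log2 ratio -1.13) and Cox7b2 (log2 ratio -0.85, interval -2.25 to 0.51). The markers of myocytes (Myh6, Actc1, Tnni3, Myl2, Myl3, Ttn, Actn2 and Ryr2) summed to 743 and 281 CPM, so the Cox6a2 ratio went with a smaller myocyte signal. In values over all cells, fewer cells of a type and less RNA per cell cannot be told apart.

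What the 82 genes share in sequence was looked for in the 250 bases before each gene's start, taken from RefSeq on GRCm38.p6, where 66 of the 82 were matched. The letters GCGCA and GCGC with any base between them, the core recognised by nuclear respiratory factor 1 (NRF-1, a regulator of nuclear genes for mitochondrial proteins), was present on either strand in 13 of 66 (19.7%), and in 4.23% of all 27025 promoters of the same length. The 13 were Atp5c1, Atp5g2, Atp5h, Atp5k, Cox6a1, Ndufa5, Ndufa8, Ndufa11, Ndufb4, Ndufs5, Ndufs6, Sdha and Sdhd. Median GC content was 56% in the members and 52.4% in all promoters. The CCAAT box was present in 43.9% of the members and 37.5% of all promoters, ACGTG, the core of hypoxia response elements, in 19.7% and 18.5%, and the E-box CANNTG, which myogenic factors among others bind, in 62.1% and 69.3%. The letters CACGTG hold both of the last motifs. The members not matched, among them Cox4i2, Ndufa4l2, Cox4i1 and Cox6a2, are not in these shares. A match is a stretch of letters and no measure of binding.

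A pair of promoters with the NRF-1 type motif is shown beside those of a pair of muscle isoform genes that lack it, as most of the matched members do. Capitals mark this motif or its reverse complement in Ndufs5 (an accessory subunit of complex I) and Cox6a1 (the common form of complex IV subunit 6a). In Cox7a1 and Cox8b they mark the E-box. Ndufs5 also holds 1 E-box, which is not marked, and Cox6a1 holds 0, so the E-box does not set the pairs apart. Each sequence reads 5′ to 3′ towards the gene, and bases that GENCODE places in an exon of the gene were cut from its end. The windows are chr4:123718203-123718436 (minus strand), chr5:115348982-115349208 (minus), chr7:30183921-30184143 (plus) and chr7:140900447-140900696 (minus), in this order.
Ndufs5: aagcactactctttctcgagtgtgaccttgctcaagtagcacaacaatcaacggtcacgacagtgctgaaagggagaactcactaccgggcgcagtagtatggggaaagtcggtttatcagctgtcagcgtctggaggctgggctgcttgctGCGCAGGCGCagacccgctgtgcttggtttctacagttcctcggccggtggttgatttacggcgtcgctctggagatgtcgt
Cox6a1: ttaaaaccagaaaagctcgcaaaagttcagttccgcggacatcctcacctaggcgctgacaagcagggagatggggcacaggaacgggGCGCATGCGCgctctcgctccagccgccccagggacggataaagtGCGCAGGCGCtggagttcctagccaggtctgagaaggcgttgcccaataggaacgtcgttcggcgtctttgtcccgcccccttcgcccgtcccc
Cox7a1: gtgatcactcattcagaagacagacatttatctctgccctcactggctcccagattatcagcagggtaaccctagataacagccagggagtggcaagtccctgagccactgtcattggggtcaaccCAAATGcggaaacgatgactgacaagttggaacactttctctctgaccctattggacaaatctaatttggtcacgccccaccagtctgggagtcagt
Cox8b: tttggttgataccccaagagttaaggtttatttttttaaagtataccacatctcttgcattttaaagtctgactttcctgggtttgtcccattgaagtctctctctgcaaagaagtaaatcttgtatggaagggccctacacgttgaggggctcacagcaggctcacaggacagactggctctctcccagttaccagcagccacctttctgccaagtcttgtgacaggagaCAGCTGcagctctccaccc

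Myocytes stood apart from every other class. The members took 11.5% of myocyte UMIs at P1 and 13.9% at P7, against 2.09% to 3.21% at P1 and 2.09% to 4.23% at P7 in the 6 other classes compared. At P1, 77 of the 82 genes had their highest CPM in myocytes, and at P7, 75. The median gene was 5.08-fold above the median of the 6 other classes at P1 and 5.22-fold at P7. The folds ran highest for the muscle isoforms, with Cox6a2 at 1414 CPM against a median of 2.81 CPM elsewhere at P1, and Cox7a1 at 359 against 3.07 CPM. Cox8b, at 488 CPM in P1 myocytes, had a median of 0 in the other classes.

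Among the other subunits, Atp5g1 (another c-ring gene, 4150 CPM in P1 myocytes, 11.4-fold), Cox5a (a core-associated subunit of complex IV, 9.60-fold) and Uqcrfs1 (the Rieske iron-sulphur protein of complex III, 8.52-fold) were well above the median fold. Sdhc, a membrane anchor of complex II, was 8.15-fold higher. Cox6a1 stood at 277 CPM in P1 myocytes, and its median in the 6 other classes was 274 CPM. Ndufa4l2 and Cox4i2 were below the median of the 6 other classes in P1 myocytes, from 7 and 2 UMIs. Ndufa4l2 was at 12.8 against 68.9 CPM and Cox4i2 at 3.64 against 23.3 CPM. They were not below every single class.

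**Figure D1:**
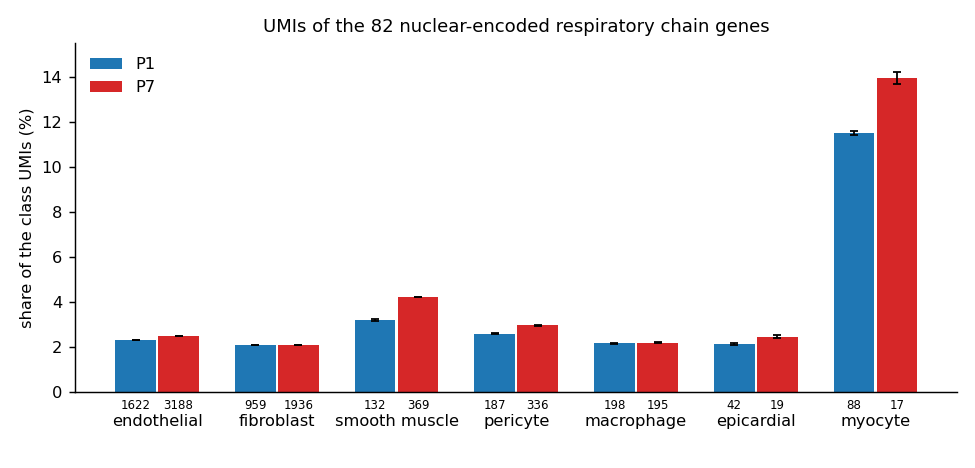
Share of each class's UMIs taken by the 82 genes (vertical axis, %) at P1 (blue) and P7 (red). Black bars are 95% exact binomial intervals (counting error only), and the small figures are cell numbers. Myocytes reach 11.5% and 13.9%, and smooth muscle cells, the next class, 3.21% and 4.23%.

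**Figure D2:**
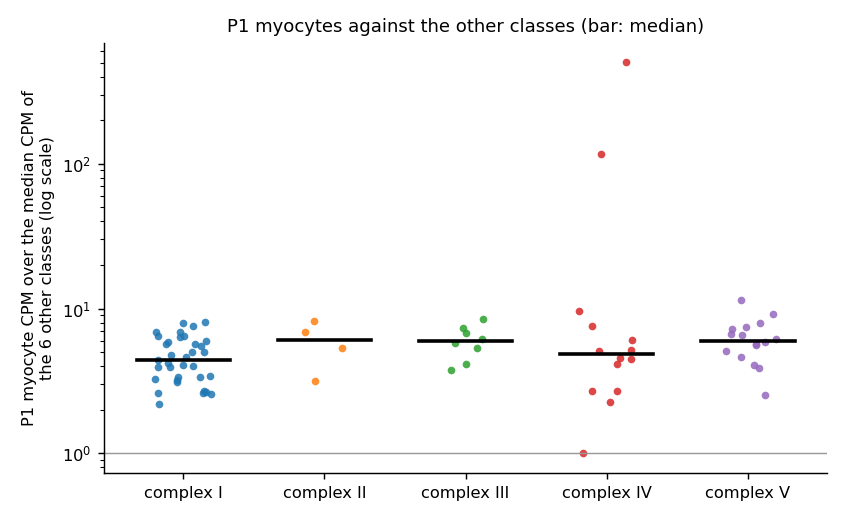
CPM of each gene in P1 myocytes over its median CPM in the 6 other classes (log axis), grouped by complex. Points are genes with at least 20 UMIs in P1 myocytes and a median above 0 elsewhere, and black bars are medians of the points. Nearly all points lie between 2 and 12, with Cox7a1 and Cox6a2 above 100 and Cox6a1 near 1.

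The myocyte class rests on few barcodes of an unusual make-up. Median UMIs per barcode were 3932 at P1 and 2316 at P7. Malat1, a nuclear RNA, had a median share of 0.037% and 0.112% in myocytes and at least 0.926% and 1.12% in the other classes. UMIs of the mitochondrial genome were 0.271 and 0.114 per member UMI, where the other classes had 1.36 to 1.80 at P1 and 1.18 to 1.67 at P7, although both sets of genes encode the same complexes. The P1 value rests on 4 barcodes (8018 to 46118 UMIs, 8.07% to 16.0% of them mitochondrial), which held 69.8% of the mitochondrial UMIs of P1 myocytes. Without these 4 it was 0.0989, below that at P7. Per barcode the median mitochondrial share was 0.56% at P1 and 1.69% at P7, the opposite order to the pooled ratio. The filter on mitochondrial UMIs bears on these values too, since without it the class held 99 and 25 barcodes with 8.61% and 6.33% mitochondrial UMIs in all and medians of 0.69% and 3.29%. The part of these values in the myocyte levels was not tested.

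Between the ages, 14 of the 79 members with 20 UMIs in myocytes were past 1.5-fold higher at P7 (14.4% of all 3357 genes were) and 4 were higher at P1 (31.4% of all genes). The median log2 ratio was 0.23 in the members and -0.14 in all genes. Members had a median of 743 UMIs and all genes 46, so that sampling noise was larger for all genes. Without the 4 P1 barcodes above, 9 members were past 1.5-fold higher at P7 and the median was again 0.23. In the summed CPM, complex III (13717 and 17919 CPM, log2 ratio 0.39), complex V (0.29), complex I (0.28) and complex IV (0.24) were higher at P7. Complex II, which is also an enzyme of the citric acid cycle, stood at 2931 and 2635 CPM (log2 ratio -0.15, interval -0.41 to 0.09).

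The named genes higher at P7 included small subunits of complex V. Atp5k (subunit e) was at 1168 CPM in P1 myocytes and 2231 CPM in P7 myocytes, a log2 ratio of 0.94 (0.65 to 1.21), and Atp5j2 (subunit f) was at 1692 and 3074 CPM, 0.86 (0.62 to 1.10). Of complex I, Ndufs6 was at 936 and 1827 CPM, 0.97 (0.65 to 1.27), and Ndufv3, an accessory subunit of the NADH-binding module, at 911 and 1616 CPM, 0.83 (0.49 to 1.15). These 4 intervals leave out 0.

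Higher at P1 in myocytes were Ndufc2 (643 and 281 CPM, log2 ratio -1.15, interval -2.02 to -0.47) and, with 8 UMIs each at P7, Sdha (-0.95) and Ndufs1 (-0.87). Sdha is the flavoprotein of complex II and Ndufs1 the largest iron-sulphur subunit of complex I. The Ndufs1 interval (-2.19 to 0.07) includes 0 and that of Sdha ends at -0.02. Cox6a1 was at 277 and 158 CPM, from 152 and 9 UMIs (-0.74, interval -1.96 to 0.15).

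The muscle isoforms made up a larger share of their pairs in P7 than in P1 myocytes. Cox7a1 made up 17.2% (15.0 to 19.5) of the Cox7a1 and Cox7a2 UMIs at P1 and 31.5% (24.2 to 39.6) at P7. Cox8b made up 19.4% (17.3 to 21.5) of the Cox8b and Cox8a UMIs at P1 and 38.4% (30.3 to 47.1) at P7. For both pairs the intervals did not overlap, also without the 4 P1 barcodes, where the P1 shares were both 18.3%. Cox6a2 already held 83.6% (81.1 to 86.0) of its pair with Cox6a1 at P1 and held 91.1% (83.8 to 95.8) at P7, where the intervals overlapped. The P7 shares rest on 149, 138 and 101 UMIs from 17 barcodes, and variation between barcodes or animals is not in these intervals. The largest P7 barcodes held 11558, 10323 and 6386 of the 56923 UMIs of the class.

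In CPM, Cox7a1 was at 359 and 826 in myocytes (log2 ratio 1.21, interval 0.71 to 1.67) and Cox8b at 488 and 931 (0.94, interval 0.48 to 1.36). Cox8a, the common partner of Cox8b, was at 2035 and 1493 CPM (-0.44, interval -0.78 to -0.13). Cox7a2, the common partner of Cox7a1, was at 1731 and 1792 CPM. Over all cells the same 2 muscle isoforms were lower at P7 (Cox8b -0.33, Cox7a1 -0.25), the opposite direction to that within myocytes.

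The c-ring of ATP synthase, whose 3 genes encode the same mature protein, also differed by class. Atp5g1 gave 52.1% of c-ring UMIs in P1 myocytes and 54.0% in P7 myocytes, and between 21.6% and 34.6% in the other classes with 10 or more cells. Atp5g2 gave 22.0% and 19.0% in myocytes, and 44.7% to 56.0% in those other classes. In smooth muscle the share of Atp5g3 was 27.3% at P1 and 33.6% at P7.

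Smooth muscle cells had the second highest share and the most uniform difference between the ages. Of 79 members with 20 UMIs, 76 had a log2 ratio above 0, and 71 had an interval wholly above 0, none wholly below. The median log2 ratio was 0.39 (quartiles 0.28 and 0.53) and that of all 10563 genes -0.01. Past 1.5-fold, 12 members were higher at P7, where 10.4% of all genes were, and none was higher at P1, where 11.9% were. The count is thus not far above the background share, while the median stood apart, in genes with a median of 2273 UMIs against 140 for all genes.

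The difference ran through all the complexes at a like size. Summed CPM was 9066 and 11680 for complex I (log2 ratio 0.37, interval 0.34 to 0.39), 684 and 913 for complex II (0.42, 0.32 to 0.51), 3338 and 4443 for complex III (0.41, 0.37 to 0.46), 9729 and 13060 for complex IV (0.42, 0.40 to 0.45) and 9296 and 12181 for complex V (0.39, 0.36 to 0.42). All 4 members of complex II and all 8 of complex III had ratios above 0.

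Past 1.5-fold in smooth muscle were the complex I genes Ndufs8 (117 and 209 CPM, log2 ratio 0.84), Ndufb2 (173 and 287 CPM, 0.73), Ndufs1, Ndufa3 and Ndufv1. Ndufs8 carries iron-sulphur clusters, and Ndufv1 binds NADH. Of complex III there was Uqcrc1, a core protein (180 and 284 CPM, 0.65), and of complex V Atp5k (258 and 390 CPM, 0.59). Of complex IV there were Cox5a (453 and 738 CPM, 0.70), Cox6c (763 and 1154 CPM, 0.60), Cox4i2, Cox6b2 (31 and 167 UMIs, 1.12) and Cox7a1 (4 and 23 UMIs, with an interval that includes 0). The Cox6b2 ratio ran from 0.32 in cells with no Tnnt2 UMI to 2.15 in cells thinned to 2000 UMIs. Thinned, the ratios of Ndufs8 and Ndufb2 were 0.52 and 0.44, under 1.5-fold. At the bottom of the list were Cox7a2l, a factor of supercomplex assembly (327 and 302 CPM, -0.12), and Ndufa6 (369 and 341 CPM, -0.11), whose intervals include 0 and which were above 0 when thinned (0.13 and 0.15).

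**Figure D3:**
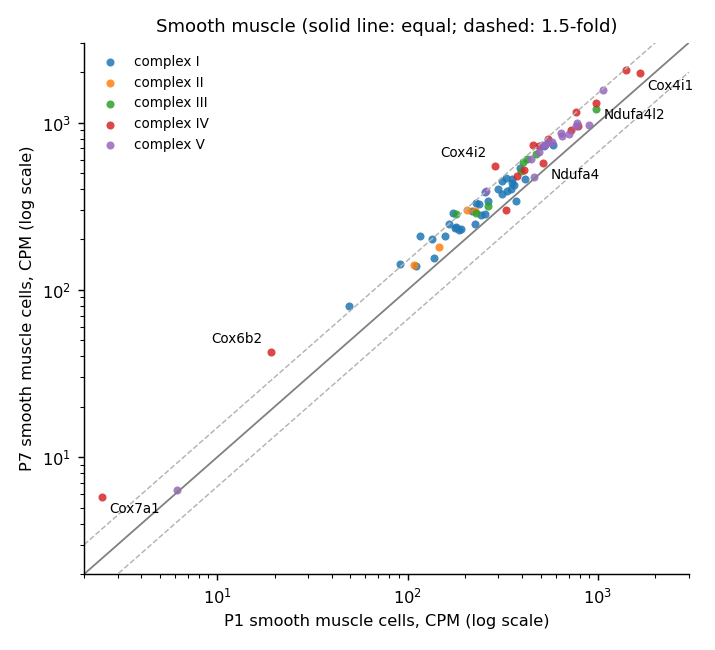
CPM of each gene in P1 (horizontal) and P7 (vertical) smooth muscle cells, both on log axes, coloured by complex. The solid line marks equal levels and the dashed lines 1.5-fold. Of 79 genes 76 lie above the solid line, and Cox6b2 and Cox4i2 are among those beyond the upper dashed line.

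The make-up of the smooth muscle gate differed with age. Its own markers (Acta2, Tagln, Cnn1 and Mylk) summed to 26992 CPM at P1 and 34704 CPM at P7. Pericyte markers summed to 2602 and 4671 CPM. Fibroblast markers went the other way, at 2978 and 1762 CPM, as did neutrophil markers (S100a8 and S100a9), at 940 and 8.60 CPM. Lung genes, defined with the epicardial cells below, were carried by 14 of 132 P1 cells and 15 of 369 P7 cells. Tnnt2, which is not restricted to myocytes in the newborn heart, was at 661 CPM in P1 and 109 CPM in P7 smooth muscle, while the 8 myocyte markers were at 87.8 and 87.5 CPM. The share of UMIs given to members per cell had quartiles of 2.16% and 3.95% at P1 and 3.52% and 4.97% at P7. In cells with no Abcc9 or Kcnj8 UMI (99 and 277 cells), 25 members were past 1.5-fold and the median was 0.48. In cells with no Tnnt2 UMI (21 and 206 cells), 7 were and the median was 0.29. The part of the other marker differences in the smooth muscle ratios was not tested.

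Pericytes differed less, with a median log2 ratio of 0.19 (all genes 0.02). Past 1.5-fold, 2 of 79 members were higher at P7 (8.81% of 10651 genes) and 2 at P1 (8.21% of genes). Higher at P7 were Cox4i2 and Ndufa1, an X-linked subunit of complex I (103 and 160 CPM, 0.64, but 0.39 with gates of 1 UMI). Higher at P1 were Ndufa4 and Atp5s, the latter with 22 and 18 UMIs and an interval that includes 0. The pericyte markers (Abcc9, Rgs5, Vtn, Pdgfrb and Notch3) summed to 5203 CPM at P1 and 9783 CPM at P7. Fibroblast markers summed to 6685 and 7883 CPM in the same cells, and lung genes were carried by 26 of 187 P1 cells and 23 of 336 P7 cells. The part of this make-up in the pericyte ratios and isoform shares was not tested.

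**Figure D4:**
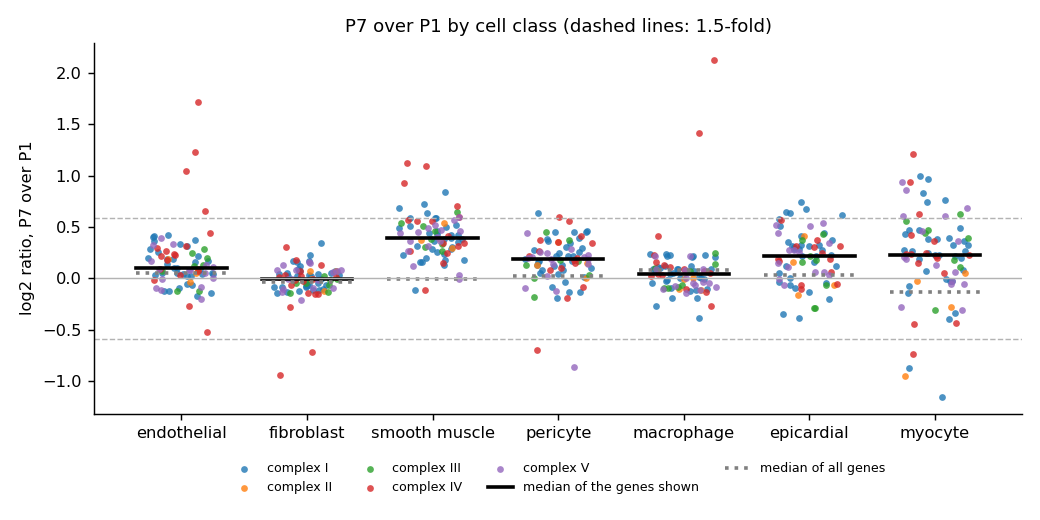
Log2 ratio of CPM, P7 over P1, of each gene with 20 UMIs in a class, coloured by complex. Black bars are medians of these genes, grey dotted bars medians of all genes, and dashed lines 1.5-fold. The smooth muscle genes lie higher as a whole, around 0.39, while those of fibroblasts and macrophages lie around 0.

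Ndufa4 and Ndufa4l2 are alternative subunits of complex IV, the first named for complex I, with which it was once counted. Their split was the sharpest isoform difference among the non-muscle classes. Ndufa4l2 was at 1485 CPM in P1 and 1882 CPM in P7 pericytes (log2 ratio 0.34, interval 0.28 to 0.41). In smooth muscle it was at 979 and 1304 CPM (0.41, interval 0.33 to 0.50) and in fibroblasts at 124 and 102 CPM (-0.28, interval -0.36 to -0.20). In endothelial cells it was at 12.6 and 17.1 CPM, and in macrophages at 2.08 and 9.80 CPM from 5 and 21 UMIs. Epicardial cells and myocytes had 9 UMIs or fewer in each library, so their place in this order cannot be set.

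As a share of the pair, Ndufa4l2 held 87.4% (86.2 to 88.5) in P1 pericytes and 93.4% (92.8 to 94.0) in P7 pericytes. In smooth muscle it held 65.5% (63.6 to 67.4) and 69.5% (68.5 to 70.6), and in fibroblasts 22.3% (21.5 to 23.2) and 19.0% (18.4 to 19.5). The endothelial shares were 2.15% and 2.35%, with overlapping intervals. Pericytes were thus the class in which Ndufa4 was lowest, at 215 CPM at P1 and 132 CPM at P7 (log2 ratio -0.70, interval -0.90 to -0.50). In pericytes with a UMI of Abcc9, a channel subunit that partners Kcnj8, the Ndufa4 ratio was -1.06 and the Ndufa4l2 shares 90.8% and 96.3%. In smooth muscle cells with no Abcc9 or Kcnj8 UMI the Ndufa4l2 shares were 62.3% (59.9 to 64.7) and 65.4% (64.1 to 66.7). These smooth muscle intervals overlapped between the ages.

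Ndufa4 in the other classes went the other way or stayed near level. It was at 572 and 712 CPM in endothelial cells (0.31, interval 0.28 to 0.35), at 515 and 571 CPM in smooth muscle and at 431 and 435 CPM in fibroblasts.

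Cox4i2, the alternative form of complex IV subunit 4, had the same leading classes as Ndufa4l2. In pericytes it was at 635 CPM at P1 and 964 CPM at P7 (0.60, interval 0.51 to 0.70), and held 31.7% (30.3 to 33.2) and 39.9% (38.8 to 41.1) of its pair with Cox4i1. In smooth muscle it was at 289 and 551 CPM (0.93, interval 0.78 to 1.08) and held 14.9% (13.7 to 16.2) and 21.9% (21.1 to 22.7). In fibroblasts it was at 38.8 and 23.7 CPM (-0.71, interval -0.86 to -0.56), or 3.48% and 2.26% of the pair. In endothelial cells it was at 7.86 and 12.4 CPM (0.65, interval 0.38 to 0.94), beside pericyte markers at 35.1 and 92.0 CPM in the same cells. Several of these ratios fell under 1.5-fold in an alternative. The endothelial ratio was 0.0046 with cells thinned to 2000 UMIs and 0.38 with gates of 1 UMI, and the fibroblast ratio was -0.39 and -0.52. In smooth muscle cells with no Tnnt2 UMI the ratio was 0.27, and in pericytes with no mitochondrial limit it was 0.55.

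Thinned to 2000 UMIs per cell, which left out 6 and 11 smooth muscle cells and 8 and 8 pericytes, a Cox4i2 UMI was found in 61.5% of P1 and 76.2% of P7 pericytes and in 37.3% and 59.8% of smooth muscle cells. The unthinned shares were 84.0% and 91.1% of pericytes (median depth 9574 and 7870 UMIs) and 78.0% and 89.2% of smooth muscle cells (11986 and 9979 UMIs). Macrophages, taken as a class that should lack both isoforms, gave a background of 1.58% and 1.04% after thinning and 5.56% and 5.13% before (10756 and 10073 UMIs). In endothelial cells the thinned Cox4i2 shares were 1.98% and 2.09%, with overlapping intervals and near the macrophage background. For Ndufa4l2 the thinned shares were 80.4% and 88.1% of pericytes, 61.1% and 82.7% of smooth muscle cells and 20.8% and 17.4% of fibroblasts, against 0.53% and 1.04% of macrophages.

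**Figure D5:**
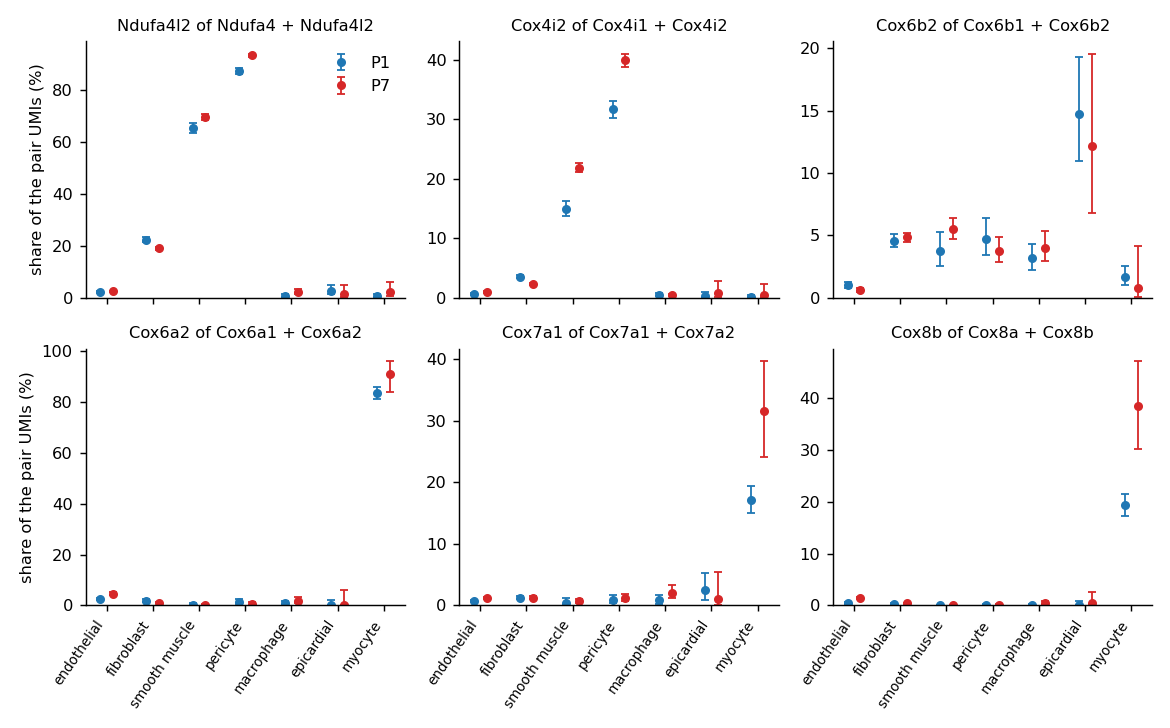
Share of the UMIs of an isoform pair held by the isoform named first in each title (vertical axis, %), by class, at P1 (blue) and P7 (red), with 95% exact binomial intervals for counting error. Ndufa4l2 and Cox4i2 peak in pericytes and then smooth muscle, Cox6b2 in epicardial cells, and Cox6a2, Cox7a1 and Cox8b in myocytes.

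Cox6b2, known as a testis form of complex IV subunit 6b, was low in all classes and took its largest share in epicardial cells. There it held 14.8% (10.9 to 19.3) of its pair with Cox6b1 at P1 and 12.2% (6.82 to 19.6) at P7, from 44 and 14 UMIs. The intervals overlapped between ages. In smooth muscle, pericytes, fibroblasts and macrophages the share was between 3.15% and 5.48%, in endothelial cells 0.98% and 0.61%, and in P1 myocytes 1.62%. The P1 epicardial interval lay above that of each other class compared at P1.

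Epicardial cells otherwise had a median log2 ratio of 0.22 (all genes 0.03) and a member share of 2.14% at P1 and 2.46% at P7. Past 1.5-fold, 5 of 75 members were higher at P7 (16% of 5883 genes) and none at P1 (15.6% of genes). All 5 belong to complex I: Ndufs6, Ndufs8, Ndufa5, Ndufb2 and Ndufb10. Ndufa5 was at 176 and 275 CPM (0.65, interval 0.17 to 1.10) and Ndufb10 at 192 and 293 CPM (0.61, interval 0.15 to 1.05). The Ndufb10 ratio was 0.03 with cells thinned to 2000 UMIs, and that of Ndufa5 was 0.34 without cells carrying lung genes. With 42 and 19 cells the intervals of Ndufs8 and Ndufb2 include 0. Lung genes were carried by 23 of the P1 cells against 1 of the P7 cells. This meant a UMI of Foxf1 or Hoxa5, or UMIs of more than 1 of Sftpc, Sftpa1, Sftpb, Ager and Cldn18. The last 5 genes, the alveolar epithelial markers, summed to 6.30 CPM in P1 and 0 CPM in P7 epicardial cells. Over all cells they summed to 236 CPM at P1 and 1.10 CPM at P7. Lung genes were carried by 415 of all 4991 P1 cells and 222 of all 8511 P7 cells. Whether the cells carrying lung genes came from lung was not tested. Their share differed with age, so the epicardial differences may hold a difference in make-up.

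Endothelial cells held 81 members with 20 UMIs, with a median log2 ratio of 0.10 (all genes 0.05). Past 1.5-fold, 4 were higher at P7 (9.21% of 13448 genes) and none at P1 (10.4% of genes). The 4 were the isoforms Cox8b (1.72), Cox6a2 (1.23), Cox7a1 (1.05) and Cox4i2 (0.65), none above 17 CPM. Cox8b was at 3.07 and 10.2 CPM, Cox6a2 at 7.03 and 16.5 CPM and Cox7a1 at 2.60 and 5.42 CPM. With gates of 1 UMI the Cox7a1 ratio was 0.45, and that of Cox4i2 was 0.0046 when thinned, both under 1.5-fold. The 8 myocyte markers moved with them, at 291 CPM in P1 and 536 CPM in P7 endothelial cells. Per 100 UMIs of these markers there were 2.42 and 3.08 UMIs of Cox6a2 in endothelial cells, and 2.45 and 2.37 in myocytes. For Cox8b there were 1.06 and 1.90 in endothelial cells, and 0.85 and 1.37 in myocytes. For Cox7a1 there were 0.90 and 1.01 in endothelial cells, and 0.62 and 1.21 in myocytes. The part of myocyte RNA in these 3 ratios was not tested.

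Among abundant subunits in endothelial cells the differences were small. Cox7a2l was at 626 and 520 CPM (-0.27, interval -0.30 to -0.23), Atp5g2 at 816 and 709 CPM (-0.20, interval -0.23 to -0.17) and Ndufa6 at 347 and 308 CPM (-0.17, interval -0.22 to -0.13). These same 3 genes were below 0 over all cells, at -0.22, -0.18 and -0.21. Lung genes were carried by 185 of 1622 P1 and 125 of 3188 P7 endothelial cells. Over the alternatives, which included leaving such cells out, the endothelial ratios of the 3 genes ran from -0.32 to -0.16.

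In fibroblasts the member share was 2.09% at both ages, and the median log2 ratio -0.01 (all genes -0.03). Past 1.5-fold, no member was higher at P7 (8.91% of 13737 genes) and 2 were higher at P1 (12.6% of genes), namely Cox4i2 and Cox6a2. Cox6a2 was at 4.73 and 2.47 CPM (-0.94, interval -1.40 to -0.47, but -0.52 when thinned), beside myocyte markers at 195 and 102 CPM. The other muscle isoforms did not go down with these markers, with Cox7a1 at 4.18 and 4.23 CPM and Cox8b at 2.24 and 2.79 CPM. The complex I gene Ndufa13 was at 305 and 388 CPM (0.34, interval 0.30 to 0.39), the highest ratio of a member in this class, and it was also the highest over all cells (293 and 378 CPM, 0.37).

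In macrophages the member share was 2.18% and 2.21% and the median 0.04 (all genes 0.08). Past 1.5-fold, 2 of 78 were higher at P7 (14.4% of 9572 genes) and none at P1 (7.7% of genes). Both were low, Ndufa4l2 with 5 and 21 UMIs and Cox7a1 with 6 and 15. The make-up of this class differed with age, with its own markers at 5372 and 7284 CPM. Neutrophil markers (S100a8 and S100a9) were at 4014 and 1424 CPM in it, fibroblast markers at 123 and 1299 CPM and pericyte markers at 8.34 and 36.9 CPM. Their part in the macrophage values, also where these serve as background, was not tested. Ndufs4, an accessory subunit of complex I, was at 131 and 101 CPM (-0.38, interval -0.64 to -0.13), but 0.23 on the log2 scale when thinned. T cells at P7 gave a member share of 2.48%, led by Cox4i1 at 1085 CPM, and the 2 P1 cells gave 195 member UMIs.

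The X-linked members were looked at apart, since the pools differed in sex. Over all cells Ndufa1 was at 108 and 130 CPM (0.27), Ndufb11 at 329 and 321 CPM (-0.04) and Cox7b at 263 and 277 CPM (0.07). Ndufa1 stood above the member median in smooth muscle (0.58) and pericytes (0.64), and in epicardial cells it was at -0.04.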

How the data were processed

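Live cells from P1 and P7 hearts were profiled by 10x 3′ single cell RNA-seq, 1 library per age. The authors processed the reads with Cell Ranger 3.1.0 on mm10 (GRCm38) and deposited raw UMI counts per gene and barcode. These counts precede the gene and mitochondrial filters of the study's methods. How reads shared by near-identical gene copies were treated is not given in the sources used here. Several members have processed pseudogenes, so their levels are uncertain.

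Barcodes with 200 to 8000 genes and at most 20% mitochondrial UMIs were kept. Myocytes needed Tnnt2 at 0.3% of UMIs and 5 UMIs. No doublet caller was run, but cells with several gate genes were left out of the classes. Counts were summed per class and library, and CPM used all UMIs of the class. Ratios added 0.5 counts, required 20 summed UMIs and at least 10 cells per library, and carry exact conditional binomial intervals. Shares carry Clopper-Pearson intervals. A gene was counted past 1.5-fold. The study's clusters and tests were not used here. Scripts used python 3.11.15, numpy 2.4.6, scipy 1.17.1, pandas 2.3.3 and matplotlib 3.10.9, and the ratio and thinning code was tested on simulated data.

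The members and lists were chosen with earlier results of these data known. Named genes were the isoforms, the 5 largest ratios in each direction per class with 50 UMIs in the higher library, and the 3 most abundant per complex. Others, such as those past 1.5-fold, those with the largest myocyte folds, X-linked members and genes whose promoters are described, were chosen after their values were seen. Alternatives changed the mitochondrial limit, scaling, depth, gates, minimum, added counts and fold.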

Additional observations from a re-analysis of the deposited data

Results flagged for a closer look

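Cox4i2 was past 1.5-fold in opposite directions in different classes, with counting intervals that leave out 0 on both sides as processed here. The log2 ratio, P7 over P1, was 0.60 in pericytes, 0.93 in smooth muscle cells and 0.65 in endothelial cells, and -0.71 in fibroblasts. These were not all past 1.5-fold in the alternatives, with 0.0046 in endothelial cells and -0.39 in fibroblasts when thinned to 2000 UMIs, 0.27 in smooth muscle cells with no Tnnt2 UMI and 0.55 in pericytes with no mitochondrial limit. Cox6a2 was at 1.23 in endothelial cells and -0.94 in fibroblasts, in the same direction as the myocyte markers in each class (291 and 536 CPM in endothelial cells, 195 and 102 CPM in fibroblasts). The fibroblast value of Cox6a2 was -0.52 when thinned. The other muscle isoforms, Cox7a1 (4.18 and 4.23 CPM) and Cox8b (2.24 and 2.79 CPM), were not lower in P7 fibroblasts. With 1 library per age, the difference between classes was not tested for Cox4i2 or Cox6a2.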

How the results depend on the processing

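No paired analysis was possible because each age was 1 library, and for the same reason no replicate could be left out. Of the values recomputed under an alternative, 1076 moved by less than their counting error (medians by at most 0.05) or stayed within 1.5 times the count, and 206 moved further. Of the named genes, 7 had a ratio of the opposite sign in an alternative. With cells thinned to 2000 UMIs these were Ndufs4 (0.23) and Ndufv1 (0.32) in macrophages, Cox7a2l (0.13) and Ndufa6 (0.15) in smooth muscle, and Uqcrfs1 (0.09) and Ndufs5 (0.10) in epicardial cells, and with gates of 1 UMI Cox8b in fibroblasts (-0.04). Only the Ndufs4 interval had left out 0. Of 25 named ratios past 1.5-fold, 13 were under it in at least 1 alternative, 12 of them as given above and Cox6a1 in myocytes (-0.57) without the 4 P1 barcodes richest in mitochondrial UMIs. The ratio of the summed CPM over all cells was 0.025 when scaled without mitochondrial and haemoglobin UMIs, 0.080 thinned, 0.024 without cells carrying lung genes and 0.049 without the 6% of cells with most UMIs. Counts past 1.5-fold in either direction were, thinned, 1 in fibroblasts, 21 in smooth muscle, 8 in pericytes and 15 in epicardial cells. Without the cells with most UMIs they were 1 in fibroblasts and 1 in macrophages. With gates of 1 UMI they were 2 in endothelial cells, 1 in fibroblasts and 0 in macrophages, and with gates of 3 UMIs 2 in epicardial cells. A minimum of 50 UMIs gave 0 in macrophages, and no minimum 5 in macrophages and 9 in epicardial cells. At 2-fold they were 0 in fibroblasts, 2 in smooth muscle, 0 in pericytes, 0 in epicardial cells and 2 in myocytes. Asking also for an interval that leaves out 0 gave 3 in epicardial cells. Chosen after seeing the data, smooth muscle without Abcc9 and Kcnj8 gave 25 and smooth muscle without Tnnt2 gave 7, and myocytes without those 4 barcodes 12 (18 with them). The causes of these changes were not tested. The median ratio in smooth muscle ran from 0.29 to 0.48 over all alternatives, and that in fibroblasts from -0.03 to 0.04. That in macrophages was -0.04 with median-ratio centring. Tnnt2 at 1% of UMIs left 9 P7 myocytes, too few for a ratio. Depth and the 17 and 19 cells limit the P7 myocyte and epicardial values.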

Other observations

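The other genes of the pathway were counted by list in smooth muscle and in myocytes. In smooth muscle, 12 of 46 assembly factors with 20 UMIs were past 1.5-fold higher at P7 and 2 at P1. Among them were Ndufaf2, a complex I assembly factor (51.3 and 83.5 CPM, log2 ratio 0.70), Higd1b, a relative of complex IV supercomplex factors (114 and 195 CPM, 0.77), and Coa7 (13.0 and 27.8 CPM, 1.07). Higd1b was higher in pericytes, at 506 and 795 CPM, and pericyte markers in the smooth muscle gate were at 2602 and 4671 CPM. The part of pericyte RNA in its smooth muscle ratio was not tested. Nubpl, a complex I iron-sulphur factor, was at 14.2 and 7.59 CPM (-0.91) and Cox18, an insertase for complex IV, at 28.4 and 18.7 CPM (-0.61). Of the 12 assembly factors higher at P7, Ndufaf5, Sco1, Atpaf1 and Atpaf2 had 6 to 22 UMIs at P1 and intervals that include 0. The median log2 ratio of 14 citric acid cycle genes was 0.41, and citrate synthase, Cs, was at 70.5 and 111 CPM (0.65). Cyc1 (0.60) and Cycs (0.66), the cytochromes c1 and c, were also higher at P7. Of 12 regulators of mitochondrial biogenesis, 3 were higher at P7 (Ppargc1b, Esrra and Polrmt) and 1 at P1, Ppargc1a (12.4 and 5.57 CPM, from 20 and 22 UMIs). The share of all smooth muscle genes past 1.5-fold was 10.4% and 11.9%. These examples were chosen after their values were seen.

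In myocytes, 9 of 32 assembly factors with 20 UMIs were past 1.5-fold higher at P7 and 5 at P1, where 14.4% and 31.4% of all genes were. Of the 9 higher at P7, only Cox20 had an interval that leaves out 0, and the others had 5 to 8 UMIs at P7. The median log2 ratio of the 14 citric acid cycle genes was 0.09, and that of all genes -0.14. Of 6 regulators of biogenesis none was higher at P7 and 4 were higher at P1 (Ppargc1a, Ppargc1b, Esrra and Tfb2m). These 4 had 26 to 65 UMIs at P1 and 0 or 1 at P7, and the interval left out 0 only for Esrra.

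The 13 genes of the mitochondrial genome had median log2 ratios of -0.09 in endothelial cells, -0.19 in fibroblasts and -0.19 in pericytes. In epicardial cells their median was -0.27 and in macrophages 0.14. The medians of the 82 nuclear genes were 0.10, -0.01, 0.19, 0.22 and 0.04 in the same order. In smooth muscle none of the 13 was past 1.5-fold, with a median log2 ratio of 0.14 and 4.36% and 5.01% of UMIs. In myocytes, where 11 had 20 UMIs, 10 were past 1.5-fold higher at P1 (31.4% of all genes were), led in counts by mt-Co3 (5860 and 3215 CPM, -0.86) and mt-Atp6 (5374 and 1950 CPM, -1.46). Only mt-Co1 was not among them (3791 and 3443 CPM, -0.14). These counts rest on 4 P1 barcodes that held 69.8% of the mitochondrial UMIs of the class. Without them 2 of the 11 were past 1.5-fold higher at P7 and 1 at P1, and the median went from -1.20 to 0.30. The median mitochondrial share per barcode was 0.56% at P1 and 1.69% at P7, or 0.69% and 3.29% with no limit on mitochondrial UMIs. No direction between the ages can be read from these values.

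Over all cells, the pathway genes furthest from 0 included Ucp2, an inner membrane carrier (297 and 168 CPM, -0.83), Slc25a31, an ADP/ATP carrier (53 and 278 UMIs, 1.66), Uqcc2, a complex III assembly factor (137 and 205 CPM, 0.58), and Ppargc1a, the PGC-1alpha coactivator gene (186 and 112 UMIs, -1.45).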
